A study of Mus musculus with 20 samples.

Results

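The genes described here are a set that reports on how T cells read and dampen interleukin-2 signals and how they balance survival against death: Il2rb, Il7r, Cish, Socs1, Socs2, Socs3, Pim1, Bcl2, Bcl2l11 and Mcl1. Each was represented by the probe set that carried its symbol alone and had the highest mean over all 20 arrays. By this rule 9 of the 10 genes were measured, out of 17097 genes on the array with such a probe set, and they had 21 probe sets of 28898. Il7r was not analysed here. The cells were CD44+CD8+ effector T cells purified from mouse lung bearing 4T1 tumours, a mammary carcinoma line, and the arrays gave log2 intensities. All groups carried the tumour and were treated intranasally: Saline-CTRL received saline (5 arrays), SD-101 received a ligand of the DNA sensor TLR9 (6 arrays), SD-101+anti-PD-1 received it with an antibody against the inhibitory receptor PD-1 (5 arrays), and SD-101+anti-PD-1+a-CD4 had a-CD4 added as well, an agent whose effect the labels do not describe (4 arrays). The last 2 are called the anti-PD-1 group and the a-CD4 group. Strain, age, dose and time are not given in the labels, nor is it stated whether the numbered samples of a group are separate animals, so the p-values given here reflect spread among these arrays and not necessarily among mice.

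Interleukin-2, interleukin-15 and interleukin-7 signal through paired receptor chains to the kinases JAK1 and JAK3 and the transcription factor STAT5. STAT5 induces CISH and other SOCS proteins, which bind receptors or JAK kinases and shut the signal down, and it induces PIM1, a kinase that promotes growth and survival. The same cytokines sustain BCL2 and MCL1, which hold mitochondria intact, whereas BIM, the product of Bcl2l11, binds these proteins and starts the death of T cells after antigen or cytokine is withdrawn.

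Markers of the labelled cell type were high and Cd4 was low: over all arrays, the mean log2 intensity was 10.8 for Cd8a, 11.01 for Cd8b1 and 9.66 for Cd44, against 3.13 for Cd4, although a probe set's intensity is not a per-length level. Markers of other lung cells were also high. The mean of 11 lung epithelial markers was 9.54 ± 0.84 (SD, n = 5) in Saline-CTRL, 9.56 ± 0.37 (n = 6) in SD-101, 10.49 ± 0.17 (n = 5) in the anti-PD-1 group and 9.87 ± 0.23 (n = 4) in the a-CD4 group, where the means of 10 T cell markers were 9.75, 10.05, 9.98 and 9.87, and the means of 10 fibroblast markers lay between 7.36 and 8.16. By their T cell or neutrophil markers 3 arrays stood apart. Replicate 2 of the a-CD4 group had the lowest mean of 10 T cell markers, 8.54, and the next lowest was Saline-CTRL replicate 1 at 8.99. The former was the lowest of its group for 8 of the 9 genes and the lowest of all 20 arrays for 6 of them. Saline-CTRL replicate 1 also had the highest mean of 6 neutrophil markers, 9.81, where no other saline array was above 3.42, and a-CD4 group replicate 1 was next at 8.79. Results that rest on these arrays are given with and without them. SD-101 replicate 4 had the highest mean of 11 macrophage and monocyte markers, 6.5, and the next highest array was SD-101 replicate 3 at 5.18. Endothelial markers moved between groups: the mean of 12 endothelial markers was 9.13 ± 0.77 (SD, n = 5) in Saline-CTRL, 8.55 ± 0.86 (n = 6) in SD-101, 5.95 ± 0.41 (n = 5) in the anti-PD-1 group and 7.08 ± 0.59 (n = 4) in the a-CD4 group. Of these 12 genes, 11 fell in both groups given anti-PD-1 relative to saline. Their part in the results was not tested, and in these bulk samples fewer cells of a type and less RNA per cell cannot be told apart.

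Bcl2l11 was the gene of the set that stood out in the a-CD4 group. It rose there 1.45-fold relative to the anti-PD-1 group and 1.44-fold relative to SD-101, while Pim1 and Mcl1 fell in the same group relative to saline, by 1.09 and by 0.47 on the log2 scale. None of the receptor and SOCS-family genes (Il2rb, Cish, Socs1, Socs2, Socs3) passed the test in any of the 6 comparisons, nor did Bcl2. A gene was called when its limma p, adjusted over all 17097 genes by the Benjamini-Hochberg method, was under 0.05, and only such genes are said to rise or fall.

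By this rule 2 of the 9 genes were called in the a-CD4 group against Saline-CTRL, where 7.12% of all genes were called. Both fell, as did 3.03% of all genes. In its comparison with the anti-PD-1 group, 1 of 9 was called, a rise, against 2.13% of all genes called and 0.948% that rose. In its comparison with SD-101, 1 of 9 rose, against 0.983% called and 0.573% that rose. No gene of the set was called by limma in SD-101 against saline, where 0.333% of all genes were called and 1 of 9 had an unadjusted p under 0.05. None was called in the anti-PD-1 group against saline either, where 5.63% of all genes were called and 3 of 9 had an unadjusted p under 0.05. The same held for the anti-PD-1 group against SD-101, with 4.77% of all genes called and 4 of 9 under 0.05 before adjustment. Array weights called 3 and 4 of the 9 in these last comparisons, and 0 in SD-101 against saline. The share of all genes called under array weights is not given here, so these counts cannot be read against a background. Over the 12 other settings the number of all genes called ran from 0 to 1953, from 3 to 2760 and from 10 to 119. In the main fit it was 962, 816 and 57. The median log2 fold change of the 9 genes in the a-CD4 group was -0.45 relative to saline, beside 0.04 over all genes, and -0.21 relative to the anti-PD-1 group, beside 0.002. Both medians depend on replicate 2 of the a-CD4 group, the lowest of its group for 8 of the 9 genes. Without that array Cish, the middle gene in the first comparison, was at -0.12, and Socs1, the middle gene in the second, at -0.06. The medians without it were not taken. These comparisons share arrays, so their values for a gene are not independent of each other.

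**Figure D1:**
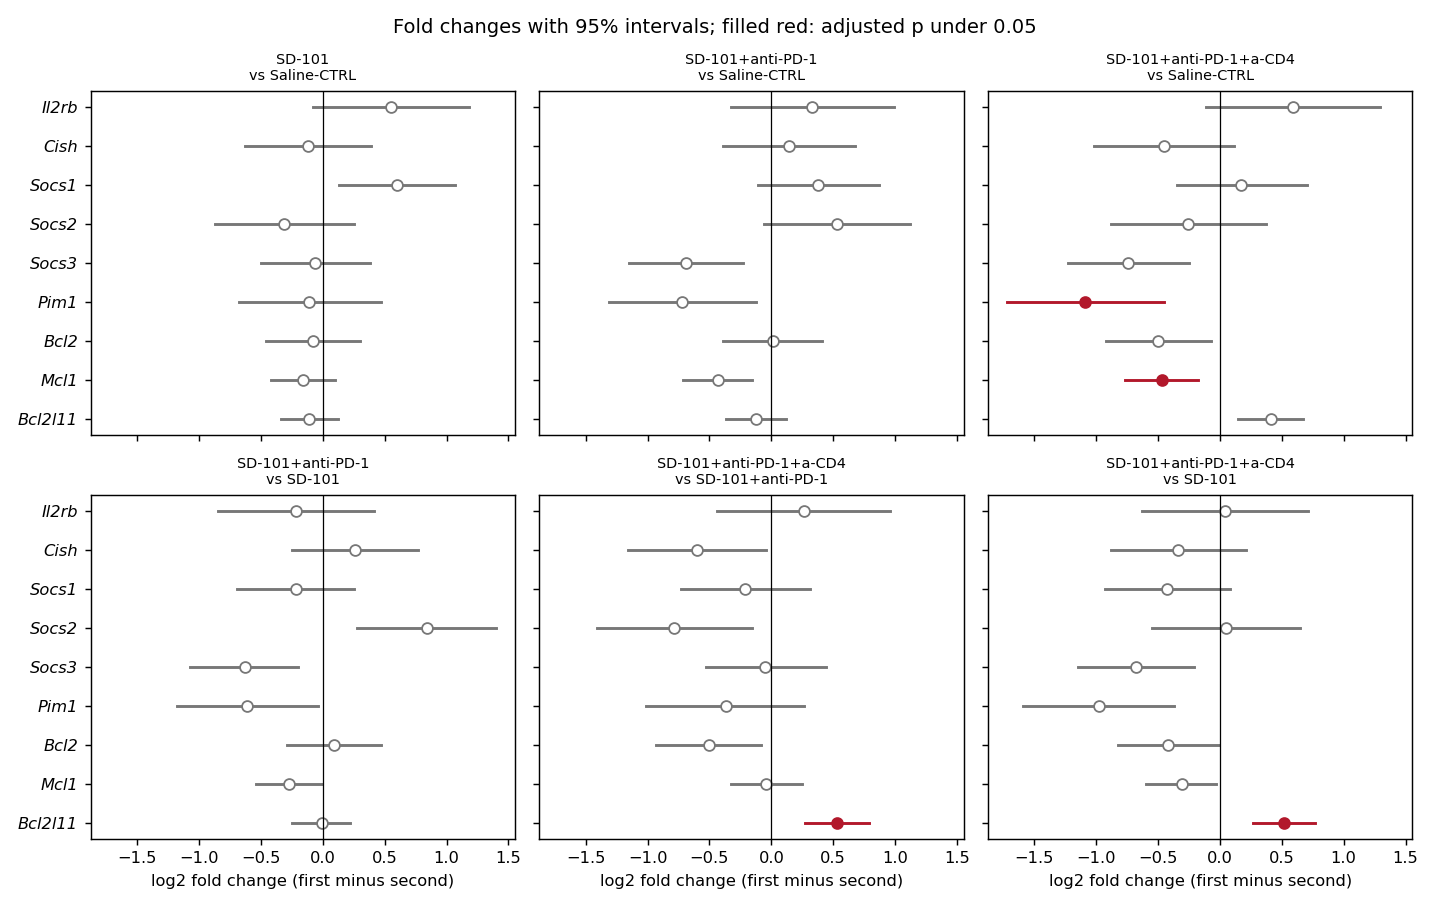
Log2 fold change of each of the 9 genes (first group minus second) with its 95% interval from limma, in the 6 comparisons; filled red points passed an adjusted p of 0.05. Bcl2l11 lies to the right of 0 in the 3 comparisons of the a-CD4 group, at 0.41, 0.53 and 0.52, and passed in the last 2, while Pim1 at -1.09 and Mcl1 at -0.47 passed against saline.

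Bcl2l11 encodes the death activator BIM. In the a-CD4 group its log2 intensities were 9.52, 8.84, 9.11 and 9.40. In the anti-PD-1 group they were 8.50, 8.51, 8.96, 8.69 and 8.75, and in Saline-CTRL 8.78, 8.74, 8.68, 8.89 and 8.93. In SD-101 they ran from 8.57 through a median of 8.71 to 8.82. Every array of the a-CD4 group thus lay above every SD-101 array, and 3 of 4 lay above every array of the other 2 groups, with replicate 2 (8.84) inside their ranges. The means of the first 3 groups, 8.80 ± 0.10 (n = 5), 8.69 ± 0.10 (n = 6) and 8.68 ± 0.19 (n = 5), were not told apart by the test.

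The log2 fold change of Bcl2l11 in the a-CD4 group was 0.53 ± 0.12 (SE) relative to the anti-PD-1 group, with a limma adjusted p of 0.0324 and an exact permutation p of 0.0238. Relative to SD-101 it was 0.52 ± 0.12, with an adjusted p of 0.0419 and an exact p of 0.00476, the smallest that 4 against 6 arrays allow. Against saline it was 0.41 ± 0.12, and the adjusted p of 0.05002 missed the threshold. Without replicate 2 the differences were larger, 0.66, 0.65 and 0.54 in the same order, and all were called, with adjusted p of 0.0243, 0.0243 and 0.00994. The calls were lost in several fits that left out 1 array. Relative to the anti-PD-1 group, 4 of 9 fits that left out an array kept the call. It was lost without replicate 1 or 4 of the a-CD4 group (adjusted p = 0.115 and 0.0841) and without replicate 1, 2 or 4 of the anti-PD-1 group (0.0969, 0.0604 and 0.0793). Relative to SD-101, 2 of 10 such fits kept it, and the adjusted p reached 0.121 without replicate 1 of the a-CD4 group. It was 0.105 and 0.0523 without replicates 4 and 3 of that group and 0.0559 to 0.0788 without any 1 of SD-101 replicates 1 to 5. With all fits of this kind the differences from the anti-PD-1 group and SD-101 stayed between 0.42 and 0.66. The difference from saline ran from 0.31 to 0.54, passed in 1 of 9 fits, and had an adjusted p of up to 0.168. Of the 12 other settings, 10 called the difference from the anti-PD-1 group, 7 that from SD-101 and 7 that from saline. The limma adjusted p in these settings reached 0.128, 0.14 and 0.242 in the same order. Replicate 1 of the a-CD4 group, with the highest Bcl2l11 intensity of all arrays (9.52), is also the one with the neutrophil score of 8.79. Without it and Saline-CTRL replicate 1, a fit chosen after the data were seen, the differences were 0.43 (adjusted p = 0.128), 0.42 (0.131) and 0.31 from saline (0.211), and none was called.

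Bcl2l11 had 5 probe sets, more than any other gene of the set, and all 5 were higher in the a-CD4 group in each comparison. Relative to the anti-PD-1 group their log2 fold changes ran from 0.53 to 0.82, and 4 of 5 were called when every probe set was fitted. The range was 0.34 to 0.52 relative to SD-101, with 1 called, the probe set already used for the gene. The others had limma adjusted p of 0.104 to 0.42 there. Relative to saline the range was 0.28 to 0.47, with 0 called by limma and a lowest adjusted p of 0.0563. The anti-PD-1 group was lower than saline in 5 of 5 probe sets, by -0.12 to -0.41, and none of these passed.

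**Figure D2:**
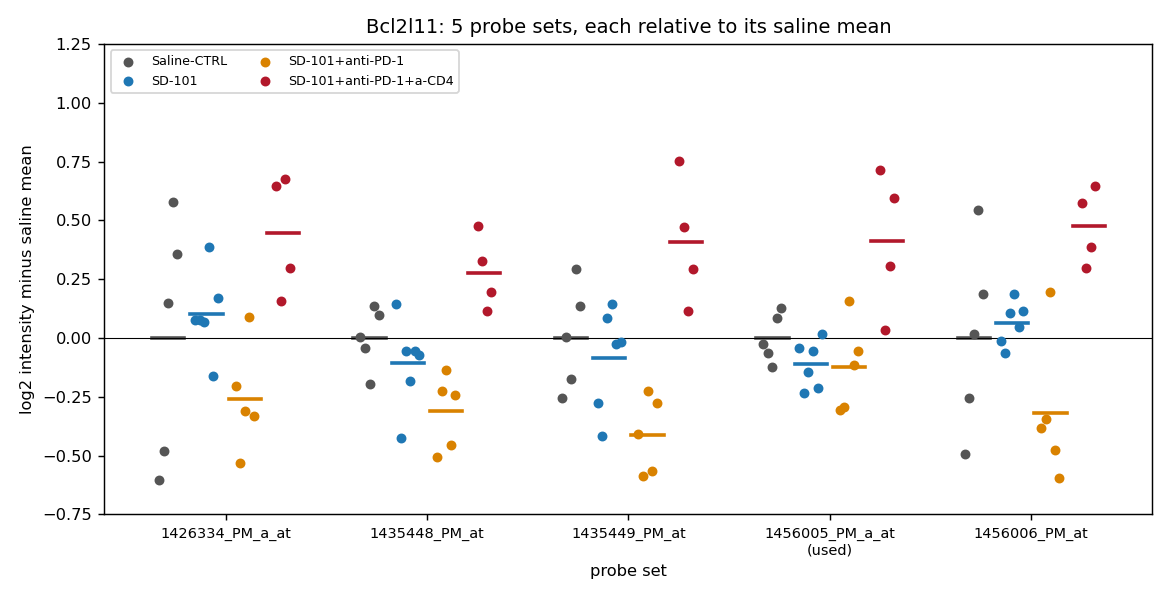
Log2 intensity of the 5 Bcl2l11 probe sets, each minus its own mean in Saline-CTRL, for every array (points) with the group mean (bars); the probe set used for the gene is marked. In all 5 the mean of the a-CD4 group lies above saline, by 0.28 to 0.47, and that of the anti-PD-1 group below it.

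FOXO transcription factors, which are held out of the nucleus while growth factor signalling is active, are known to drive Bcl2l11. The forkhead letters GTAAACA, searched on both strands, occurred in 3.65% of 32851 RefSeq promoter windows of 300 bases around gene starts. Among 10 windows of the set they occurred in 2, one of Bcl2l11 and one of Pim1. The Bcl2l11 window that holds them (GRCm38.p6, chr2:128125788-128126087, plus strand) is shown because this gene rose, with the match at bases 24 to 30 in capitals. It is a match of letters in a reference window, and binding was not measured.
Bcl2l11: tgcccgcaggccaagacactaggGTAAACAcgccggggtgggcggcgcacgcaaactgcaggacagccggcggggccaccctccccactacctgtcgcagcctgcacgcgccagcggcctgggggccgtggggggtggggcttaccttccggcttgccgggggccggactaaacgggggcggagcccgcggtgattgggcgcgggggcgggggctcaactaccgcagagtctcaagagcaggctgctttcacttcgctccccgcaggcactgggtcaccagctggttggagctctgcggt

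BCL2 and MCL1 are the proteins that BIM binds. Mcl1 fell in the a-CD4 group relative to saline. Its log2 intensities were 10.69, 10.29, 10.60, 10.53 and 10.42 in Saline-CTRL, and 10.28, 9.79, 10.06 and 10.01 in the a-CD4 group. These 2 groups did not overlap, although the highest treated array lay just under the lowest saline array. The log2 fold change was -0.47 ± 0.14 (SE), with a limma adjusted p of 0.0464 and an exact permutation p of 0.0159.

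The Mcl1 call was narrow. It was kept in 2 of 9 fits that left out an array and lost without replicate 1, 3, 4 or 5 of Saline-CTRL (adjusted p = 0.0911, 0.111, 0.0726 and 0.058) or replicate 2, 3 or 4 of the a-CD4 group (0.143, 0.0766 and 0.0962). Saline-CTRL replicate 1 held the highest Mcl1 intensity, 10.69, and the highest neutrophil score, 9.81. Without it the difference was -0.43, and without it and a-CD4 group replicate 1 it was -0.51 (adjusted p = 0.0691). Centring each array on its median gave -0.43 with an adjusted p of 0.0679. In the anti-PD-1 group the intensities were 10.07, 9.98, 9.95, 10.02 and 10.36, and the difference from saline, -0.43, had an adjusted p of 0.0612. SD-101 ran from 9.94 through a median of 10.47 to 10.59, overlapping with all 3 other groups. All 3 Mcl1 probe sets were lower in the a-CD4 group than in saline, by -0.26 to -0.52. In the anti-PD-1 group all 3 were lower too, but one by only -0.04.

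Bcl2 did not pass in any comparison. Its intensities were 8.48, 8.59, 8.62, 8.47 and 8.62 in the anti-PD-1 group, the tightest of the groups, and 8.06, 7.48, 8.39 and 8.28 in the a-CD4 group. The groups did not overlap, and the log2 difference of -0.50 ± 0.20 (SE) had an exact permutation p of 0.00794, the smallest possible, but a limma adjusted p of 0.19. Without replicate 2 it was -0.31 (adjusted p = 0.568). Saline-CTRL held 8.41, 8.43, 8.60, 8.27 and 9.02, and SD-101 ran from 8.03 through 8.50 to 8.87, so both overlapped with the other groups.

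Taking Bcl2l11 and its 2 binding partners array by array puts these values on one scale of differences. Bcl2l11 minus Bcl2 was 0.26 ± 0.28 (SD, n = 5) in Saline-CTRL, 0.23 ± 0.34 (n = 6) in SD-101, 0.13 ± 0.17 (n = 5) in the anti-PD-1 group and 1.16 ± 0.33 (n = 4) in the a-CD4 group. Bcl2l11 minus Mcl1 was -1.71 ± 0.20, -1.66 ± 0.26, -1.39 ± 0.25 and -0.82 ± 0.16 in the same order. The lowest array of the a-CD4 group had 0.72 for the first difference, against a highest value of 0.71 elsewhere, and -0.96 for the second, against -0.98. The last group therefore lay above all others in both, narrowly. These differences combine probe sets of different genes, so only their change between groups can be read, and no test was made on them.

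**Figure D3:**
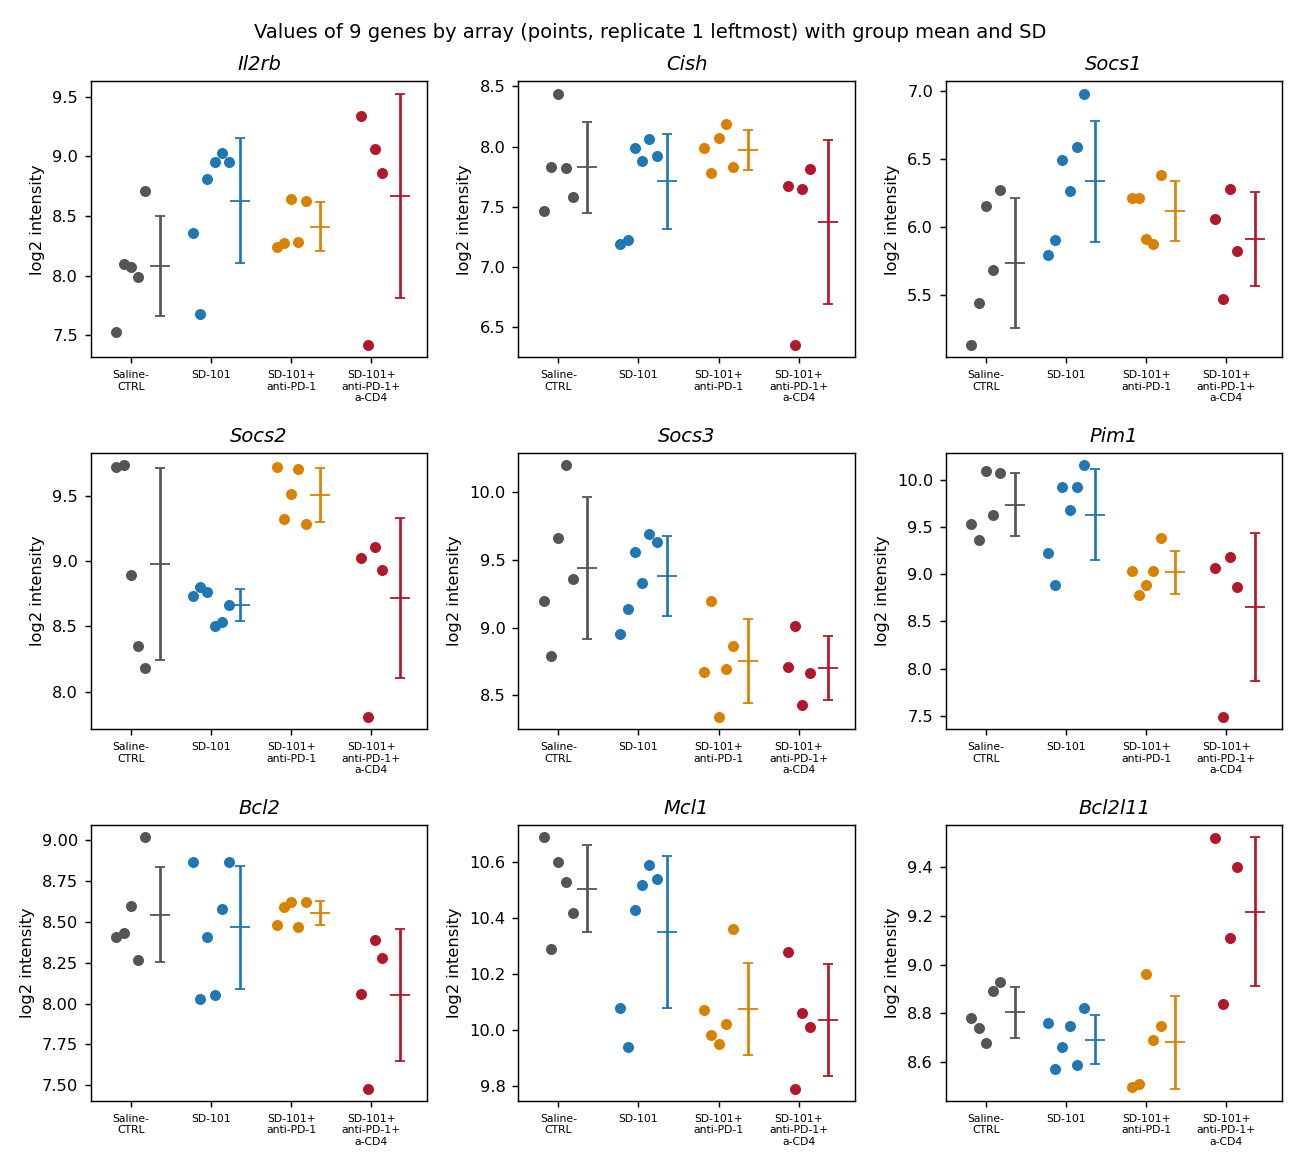
Log2 intensity of the 9 genes on each array (points, replicate 1 leftmost within a group) with the group mean and SD beside them, for the 4 treatments; each panel has its own scale. Replicate 2 of the a-CD4 group is the lowest point of its group in 8 of 9 panels, and in the Bcl2l11 panel the other 3 arrays of that group, 9.11 to 9.52, lie above all other arrays.

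PIM1 is a kinase induced by STAT5 that supports growth and survival. Pim1 showed the largest range of group means in the set, 1.09. Its log2 intensities were 9.53, 9.36, 10.09, 9.63 and 10.07 in Saline-CTRL, and in SD-101 they ran from 8.88 through a median of 9.80 to 10.15. They were 9.03, 8.78, 8.88, 9.03 and 9.38 in the anti-PD-1 group, and 9.06, 7.49, 9.18 and 8.86 in the a-CD4 group. All 4 arrays of the last group lay below every saline array, and 4 of 5 arrays of the anti-PD-1 group did, with replicate 5 (9.38) just above the lowest saline array.

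Pim1 fell by 1.09 ± 0.30 (SE) on the log2 scale in the a-CD4 group relative to saline, a 2.13-fold difference, with a limma adjusted p of 0.0345 and an exact permutation p of 0.00794, the smallest that 4 against 5 arrays allow. This call rested in part on the array that stood apart. Without replicate 2 the difference was -0.70 with an adjusted p of 0.106. It was also lost without replicate 3 or 5 of Saline-CTRL (0.0956 and 0.0706) or replicate 4 of the a-CD4 group (0.0548), and kept in 5 of 9 such fits. The difference was -0.72 in the anti-PD-1 group against saline (adjusted p = 0.168), -0.98 in the a-CD4 group against SD-101 (0.103), and -0.11 in SD-101 against saline (0.965), with an interval of -0.68 to 0.47. Without replicate 2 of the a-CD4 group its difference from SD-101 was -0.59 (adjusted p = 0.306). Its difference from the anti-PD-1 group was -0.37 (0.582) with all arrays and 0.01 (0.992) without that array. Pim1 had 1 probe set.
The Pim1 window with the forkhead letters (GRCm38.p6, chr17:29492835-29493134, plus strand) belongs to the second of its 2 listed starts. It is shown as the only window of the set beside Bcl2l11 that holds them, with bases 181 to 187 in capitals.
Pim1: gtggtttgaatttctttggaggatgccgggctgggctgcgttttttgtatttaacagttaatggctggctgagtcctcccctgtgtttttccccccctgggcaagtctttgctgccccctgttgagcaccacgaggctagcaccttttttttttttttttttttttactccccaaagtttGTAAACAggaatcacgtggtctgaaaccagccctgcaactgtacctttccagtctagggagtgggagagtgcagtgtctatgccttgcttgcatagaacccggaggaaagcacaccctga

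CISH and the SOCS proteins are the feedback inhibitors of cytokine receptors. Socs3, which blocks JAK kinases at receptors such as that for interleukin-6, was lower in both groups given anti-PD-1 without passing the test. Its intensities were 9.20, 8.79, 9.66, 10.20 and 9.36 in Saline-CTRL and 8.95 through 9.45 to 9.69 in SD-101. They were 8.67, 9.20, 8.34, 8.69 and 8.86 in the anti-PD-1 group, and 8.71, 9.01, 8.43 and 8.66 in the a-CD4 group. In each group given anti-PD-1 3 arrays lay below every saline array, and the ranges overlapped. The differences from saline were -0.69 ± 0.22 (SE, adjusted p = 0.0728) and -0.74 ± 0.23 (0.0599), and those from SD-101 were -0.63 (0.0915) and -0.68 (0.131). Leaving out Saline-CTRL replicate 2, the lowest saline array, brought the first 2 past the threshold, at -0.86 (0.0146) and -0.90 (0.0178). Leaving out replicate 2 of the anti-PD-1 group did so for the first, at -0.80 (0.0492).

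Socs2, known as a brake on growth hormone signalling and induced by STAT5, had a different order of groups. Its intensities were 9.72, 9.32, 9.51, 9.70 and 9.28 in the anti-PD-1 group, and ran from 8.50 through 8.70 to 8.80 in SD-101. No array of these 2 groups overlapped. The difference of 0.84 ± 0.27 (SE) had an exact permutation p of 0.00216, the smallest possible, and a limma adjusted p of 0.081. Of its 4 probe sets, all were higher in the anti-PD-1 group than in SD-101, by 0.38 to 1.17, and 1 was called, with an adjusted p of 0.0362. The a-CD4 group held 9.02, 7.81, 9.11 and 8.93, below every array of the anti-PD-1 group, with a difference of -0.79 (adjusted p = 0.165) and of -0.48 (0.529) without replicate 2. Saline-CTRL spread over 9.72, 9.73, 8.89, 8.35 and 8.18, and overlapped with every treated group. Lung epithelial markers moved with these values: their mean was 10.23 to 10.67 in the anti-PD-1 group and 9.06 to 10.18 in SD-101. Within saline it was 10.27 and 10.40 in replicates 1 and 2, where Socs2 was highest, and 9.33, 9.38 and 8.34 in the other 3. Their part in the Socs2 values was not tested.

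Cish, the product of which binds the interleukin-2 receptor and is a direct STAT5 target, did not pass in any comparison. It held 7.46, 7.83, 8.44, 7.82 and 7.58 in Saline-CTRL, 7.99, 7.78, 8.07, 8.19 and 7.83 in the anti-PD-1 group, and 7.67, 6.35, 7.65 and 7.81 in the a-CD4 group. SD-101 ran from 7.19 through 7.90 to 8.06. Its largest difference was -0.60 in the a-CD4 group relative to the anti-PD-1 group (adjusted p = 0.246), which was -0.26 (0.714) without replicate 2. Against saline the intervals were -0.63 to 0.39 for SD-101, -0.39 to 0.68 for the anti-PD-1 group and -1.02 to 0.11 for the a-CD4 group, so differences of this size were not resolved.

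Socs1, an inhibitor of JAK kinases that is also induced by interferons, was the one gene whose group mean was highest in SD-101. Its intensities ran from 5.79 through 6.37 to 6.98 there, against 5.13, 5.44, 6.15, 5.68 and 6.27 in Saline-CTRL, and 3 of 6 arrays lay above every saline array. The difference of 0.60 ± 0.23 (SE) had an unadjusted limma p of 0.0159 and an adjusted p of 0.455. The anti-PD-1 group held 6.21, 6.21, 5.91, 5.87 and 6.38, and the a-CD4 group held 6.06, 5.47, 6.28 and 5.82. All 4 groups overlapped.

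STAT factors bind pairs of half-sites spelled TTCNNNGAA, which reads the same on both strands. This motif occurred in 8.3% of the 32851 windows and in 3 of 10 windows of the set, those of Il7r, Cish and Socs3. Cish (GRCm38.p6, chr9:107296409-107296708, plus strand) held it at bases 251 to 259 and 262 to 270, and Socs3 (chr11:117969317-117969616, minus strand) at bases 97 to 105. Both are shown, with the matches in capitals, because the feedback genes are defined by their response to STAT factors, although neither gene was called here.
Cish: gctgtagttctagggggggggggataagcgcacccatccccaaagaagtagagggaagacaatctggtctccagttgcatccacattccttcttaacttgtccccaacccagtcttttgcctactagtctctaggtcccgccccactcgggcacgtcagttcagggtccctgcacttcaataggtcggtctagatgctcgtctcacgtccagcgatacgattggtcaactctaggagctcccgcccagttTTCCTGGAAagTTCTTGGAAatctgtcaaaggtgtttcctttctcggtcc
Socs3: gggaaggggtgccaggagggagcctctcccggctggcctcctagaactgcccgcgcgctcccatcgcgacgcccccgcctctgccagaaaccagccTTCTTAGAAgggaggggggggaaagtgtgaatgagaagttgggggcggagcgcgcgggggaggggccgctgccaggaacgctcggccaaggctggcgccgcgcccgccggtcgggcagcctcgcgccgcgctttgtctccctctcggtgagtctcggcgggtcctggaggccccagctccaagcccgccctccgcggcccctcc
The windows of Socs1, Bcl2 and Mcl1 held neither motif, which says nothing about the factors. Il2rb and Socs2 are named only.

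Il2rb encodes the receptor chain shared by interleukin-2 and interleukin-15, which sets the response of memory CD8+ cells to both. Its intensities were 7.53, 8.10, 8.07, 7.99 and 8.71 in Saline-CTRL, and ran from 7.68 through 8.88 to 9.03 in SD-101. They were 8.24, 8.27, 8.64, 8.28 and 8.63 in the anti-PD-1 group, and 9.34, 7.42, 9.06 and 8.86 in the a-CD4 group. In the last group 3 arrays lay above every saline array and replicate 2 below them all. The difference from saline was 0.59 ± 0.33 (SE, adjusted p = 0.332), and without replicate 2 it was 1.01 and passed, with an adjusted p of 0.0376. Without the 2 arrays of highest neutrophil score it was 0.23 (0.781). All 3 probe sets were higher than in saline in each treated group, and none passed. NK cells also express Il2rb. The mean of 8 NK cell markers was 5.64 ± 0.32 (SD, n = 5) in saline and 6.68 ± 0.57 (n = 6) in SD-101. It was 5.82 ± 0.17 (n = 5) in the anti-PD-1 group and 5.82 ± 0.64 (n = 4) in the a-CD4 group. The part of these markers in the Il2rb values was not tested.

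Il15ra, which presents interleukin-15 to this chain, rose in the a-CD4 group relative to saline and the anti-PD-1 group, with a mean of 7.13 ± 0.15 (SD, n = 4) against 6.22 ± 0.34 (n = 5) in saline and 6.32 ± 0.32 (n = 5) in the anti-PD-1 group. The log2 fold changes were 0.91 (adjusted p = 0.00307) and 0.81 (0.0207), and its 4 arrays lay above all arrays of both groups. In SD-101 its mean was 6.56 ± 0.15 (n = 6), and the difference of 0.57 from it did not pass (0.094). The second call was kept in 6 of 9 fits that left out an array, with an adjusted p of up to 0.0739 without replicate 2, and was 0.0519 without the 2 arrays of highest neutrophil score. Il2ra, the high-affinity chain, had 4.29 ± 0.73 (n = 4) in that group and 5.09 ± 0.62 (n = 5) in saline, a difference of -0.80 that did not pass (adjusted p = 0.182). Il2rg was not analysed here.

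Immediate early and heat shock genes respond to T cell receptor signals as well as to cell handling. Between groups, a mean over both kinds moved with Socs3, Pim1 and Mcl1. The mean of 15 heat shock and dissociation genes, called the heat shock score, was 10.38 ± 0.47 (SD, n = 5) in Saline-CTRL, 10.21 ± 0.40 (n = 6) in SD-101, 9.36 ± 0.17 (n = 5) in the anti-PD-1 group and 9.43 ± 0.20 (n = 4) in the a-CD4 group. Of the 15 genes, 9 fell in the anti-PD-1 group and 8 in the a-CD4 group relative to saline, among them Fos, Jun, Egr1 and Dusp1. The score is named for its list only. All genes that fell were immediate early ones, and no heat shock chaperone was called in these comparisons. Within SD-101, replicates 1 and 2 had the lowest scores, 9.58 and 9.85, and the lowest values of all 3 genes. The other groups did not all follow this. In Saline-CTRL, replicates 1 and 2 had the lowest scores, 9.93 and 9.84, and the lowest Socs3 and Pim1, but replicate 1 had the highest Mcl1 (10.69). In the a-CD4 group, replicate 2 had the highest score, 9.63, with the highest Socs3 (9.01) and the lowest Pim1 (7.49) and Mcl1 (9.79). In the anti-PD-1 group, replicate 3 had the lowest score, 9.12, and the lowest Socs3 and Mcl1, while the lowest Pim1 was in replicate 2, which had the highest score (9.50). When this score was added to the fit as a covariate, chosen after the data were seen, the differences from saline moved toward 0 or past it. Socs3 turned to 0.24 in the anti-PD-1 group and 0.13 in the a-CD4 group, and Pim1 and Mcl1 in the latter group became -0.62 (adjusted p = 0.441) and -0.19 (0.616). Since the score itself differs between the groups, what it stands for and the treatment cannot be told apart in this fit.

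In the same fit the Bcl2l11 difference from the anti-PD-1 group was 0.54 and passed (adjusted p = 0.027). The difference from SD-101 was 0.50 and lost its call (0.14), and that from saline was 0.38 (0.242). With the T cell score as a covariate, also chosen after the data were seen, the Bcl2l11 differences were 0.55, 0.56 and 0.39 and all passed (adjusted p = 0.00852, 0.0072 and 0.0194). Of 8 markers of CD4 and regulatory T cells, 2 rose in the a-CD4 group relative to saline, Foxp3 and Tnfrsf4, where 7.12% of all genes were called. Foxp3 also rose relative to the anti-PD-1 group, where 2.13% were called. The median log2 fold change of the 8 was 0.58 and 0.41 in these comparisons. Il2ra, on the same list, went the other way, by -0.80 and -0.73, without passing (limma adjusted p = 0.182 and 0.263). Relative to SD-101 none of the 8 was called by limma, where 0.983% of all genes were. The mean of the 8 ran from 4.59 to 5.68 in the a-CD4 group and from 4.46 to 5.49 in SD-101. It ran from 4.58 to 4.96 in the anti-PD-1 group and from 4.41 to 5.04 in saline. Cd4 itself stayed between 2.69 and 3.51 and Foxp3 between 3.23 and 4.46 over all 20 arrays. Both were low on the array's scale, where array medians ran from 3.52 to 3.75. The mean of 6 neutrophil markers ran from 3.95 to 8.79 in the a-CD4 group, with replicate 1 highest. It ran from 3.25 to 6.23 in the anti-PD-1 group, from 3.61 to 5.43 in SD-101 and up to 9.81 in saline. The part of the CD4 and regulatory T cell markers in the Bcl2l11 result was not tested, and the fit without the 2 neutrophil-high arrays is given above.

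**Figure D4:**
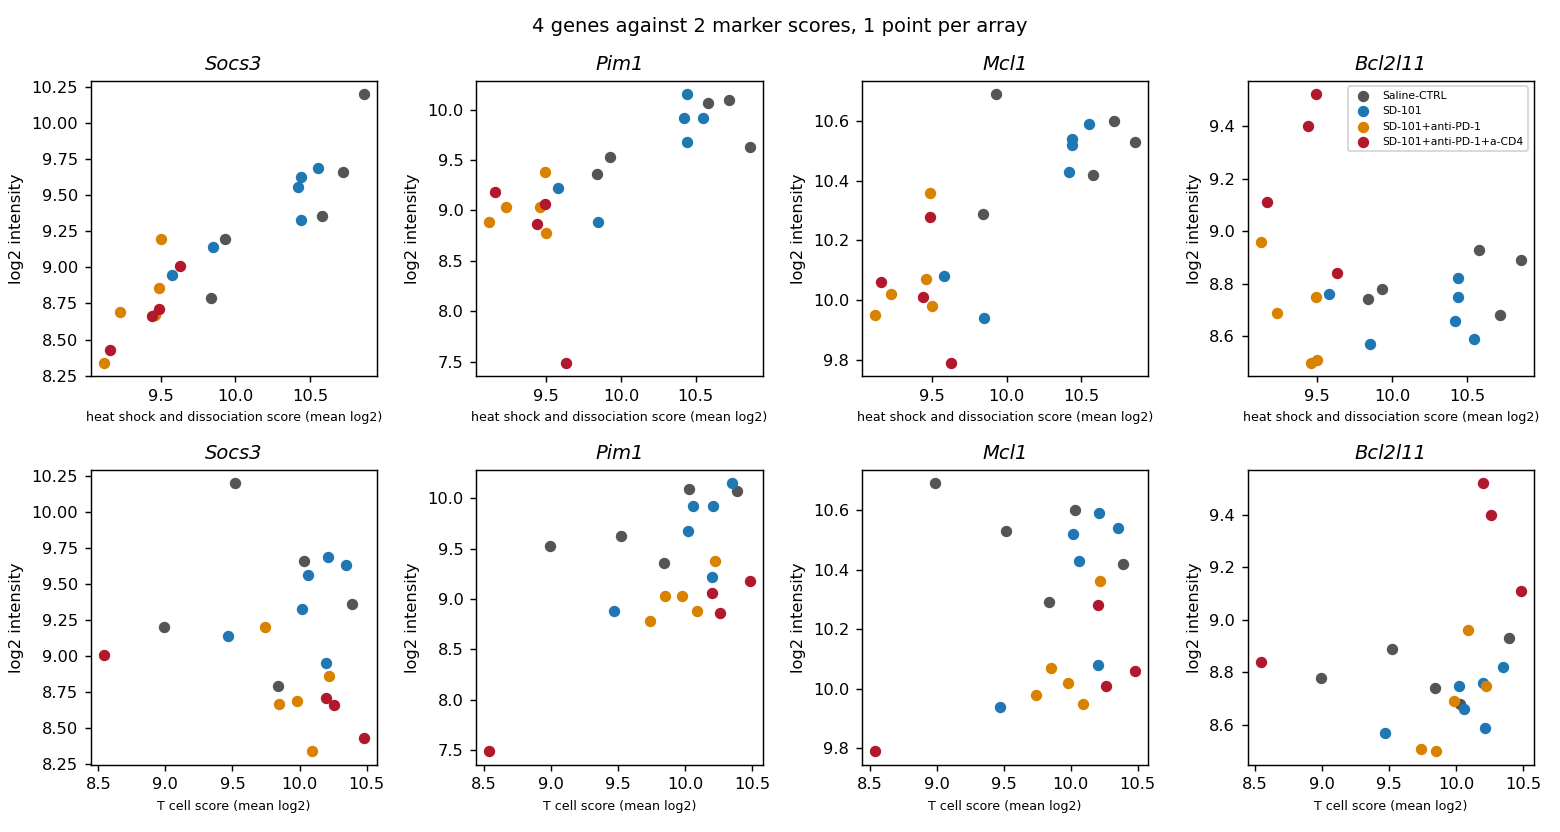
Log2 intensity of Socs3, Pim1, Mcl1 and Bcl2l11 on each array against the mean of 15 heat shock and dissociation genes (upper panels) and of 10 T cell markers (lower panels), with colours for the 4 treatments. Over all arrays Socs3, Pim1 and Mcl1 are mostly higher at higher heat shock scores, as within SD-101, but within the a-CD4 group the array of highest score, 9.63, has the lowest Pim1 and Mcl1; Bcl2l11 is shown at scores of 9.16 to 9.63 in the a-CD4 group and 9.12 to 9.50 in the anti-PD-1 group; the array at a T cell score of 8.54 is replicate 2.

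The wider pathway was described from 4 lists. Of 15 measured ligand, receptor, JAK and STAT genes, 1 rose and 2 fell in the a-CD4 group relative to saline, and in the anti-PD-1 group 1 fell, where 7.12% and 5.63% of all genes were called, so the latter count is near the background. Il4ra, the interleukin-4 receptor chain, fell by 1.07 (adjusted p = 0.00115) and by 0.88 (0.00195) in these groups, with means of 6.69 ± 0.14 (n = 4) and 6.87 ± 0.31 (n = 5) against 7.76 ± 0.35 (n = 5). Il2 itself fell by 1.19 in the former (adjusted p = 0.0271), from 4.76 ± 0.79 to 3.57 ± 0.50, both low on the array's scale, and the call was kept in 5 of 9 fits that left out an array, with an adjusted p of 0.0929 without replicate 2. The median log2 fold change of the 15 genes in the a-CD4 group against saline was 0.17, beside 0.04 over all genes.

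Of 13 measured genes on a list of STAT5 targets, 1 rose in SD-101 relative to saline. Against saline, 1 rose and 1 fell in the anti-PD-1 group, and 3 rose and 1 fell in the a-CD4 group. Of all genes 0.333%, 5.63% and 7.12% were called in these comparisons. The median log2 fold change of the 13 was 0.19, 0.19 and 0.26, beside 0.012, 0.031 and 0.037 over all genes. Gzmb, the cytotoxic protease granzyme B, rose in each treatment, by 1.88, 2.09 and 2.40 on the log2 scale (adjusted p = 0.0441, 0.0039 and 0.00259). The first of these calls was kept in 1 of 11 fits that left out an array, with an adjusted p of up to 0.127 without Saline-CTRL replicate 1. Pim3, a kinase of the same family as Pim1, fell by 1.27 and by 1.16 in the 2 groups given anti-PD-1 (adjusted p = 0.00156 and 0.00524), and by 0.76 in the anti-PD-1 group relative to SD-101 (0.045, kept in 2 of 11 fits and up to 0.103 without SD-101 replicate 3). The costimulatory receptors Tnfrsf4 (OX40) and Tnfrsf9 (4-1BB) rose by 1.31 (adjusted p = 0.0135) and 1.26 (0.0342) in the a-CD4 group, the latter kept in 3 of 9 fits, with an adjusted p of up to 0.107 without replicate 1. Tnfrsf4 lost its call without replicate 4 of that group (0.0539).

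Of 11 other cytokine inhibitors, Usp18, an interferon-induced brake on the interferon receptor, was the 1 gene that rose, in each treatment relative to saline, by 1.32, 1.81 and 1.35 (adjusted p = 0.0186, 0.000309 and 0.00445). Its call in SD-101 was kept in 7 of 11 fits that left out an array, and reached 0.0741 without Saline-CTRL replicate 1. The other 10 genes of this list were not called in those comparisons, in which 0.333%, 5.63% and 7.12% of all genes were, and the medians of the 11 were -0.05, 0.03 and 0.04. Of 11 other measured genes of the BCL2 family, Bak1, a pore-forming death effector, rose in the a-CD4 group relative to saline (adjusted p = 0.00747). This 1 of 11 is near the 7.12% of all genes called there, and the median of the 11 was 0.08. Its mean was 5.26 ± 0.06 (SD, n = 4) there and 4.26 ± 0.37 (n = 5) in saline, and all 4 arrays lay above every saline array. Bmf, a death activator of the same class as BIM, rose by 1.17 in the anti-PD-1 group relative to SD-101 (adjusted p = 0.0483), kept in 2 of 11 fits and reaching 0.15 without anti-PD-1 group replicate 1, where 4.77% of all genes were called. Osm, Bax, Bcl2a1b and Bcl2a1d were not analysed here.

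Some of these pathway calls did not hold under other settings. In the fit that included the heat shock score, Pim3 became -0.67 (adjusted p = 0.486) and -0.61 (0.242) in the anti-PD-1 group and the a-CD4 group against saline and -0.27 in the anti-PD-1 group against SD-101. Il4ra became -0.64 (0.371), Gzmb 1.47 (0.461) and Usp18 1.58 (0.121) in the anti-PD-1 group against saline. This fit called 0 of all 17097 genes in that comparison, so the loss of a call there was not particular to these genes. In the a-CD4 group against saline Il2 became -0.88 (0.28), Tnfrsf9 1.54 (0.074), Gzmb 1.82 (0.0813) and Usp18 1.13 (0.0862), and Bmf in the anti-PD-1 group against SD-101 became 0.10. Without the 2 arrays of highest neutrophil score, Tnfrsf4 was 1.16 (0.0675) and Tnfrsf9 1.03 (0.162) in the a-CD4 group against saline, and in SD-101 against saline Gzmb and Usp18 lost their calls (0.16 and 0.0981). Pim3 and Bmf in the anti-PD-1 group against SD-101 were -0.76 (0.0584) and 1.17 (0.052). When only the 2 groups were fitted, the calls in the a-CD4 group against saline were lost for Il2 (0.172), Tnfrsf4 (0.0772), Tnfrsf9 (0.136), Gzmb (0.0591) and Usp18 (0.0588), and in SD-101 against saline for Gzmb (0.106) and Usp18 (0.085).

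To describe which genes resembled the called ones, values were standardised over the 20 arrays and the root mean square difference was taken between genes. Nearest to Pim1 were Cd69, an early activation marker, at 0.33 and Btg1, an antiproliferative gene, at 0.34, where the median over all genes was 1.41. Nearest to Mcl1 were Dusp1 at 0.47 and Tnfaip3, an inhibitor of NF-kB signalling, at 0.48, with a median of 1.45. Dusp1 is also on the heat shock and dissociation list. Bcl2l11 had no gene as near: Wdr95 stood at 0.61 and Anxa11 at 0.62, with a median of 1.38. Within the set, Pim1 and Mcl1 were each other's nearest, at 0.53, and Bcl2l11 and Socs2 were the farthest from any other member, at 1.01 and 1.02.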

How the data were processed

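The deposited values are log2 intensities of Affymetrix probe sets, 1 column per sample. RMA, affy and limma and the build mm8 are named per the submitters' processing notes, with no version or role. Array data carry no read depth, and the number of arrays limits the precision. The deposited log2 values ran from 1.78 to 13.44 and were used as they stand. Of 45141 probe sets, 28898 were listed with 1 gene symbol, and per gene the one with the highest mean over the 20 arrays was kept, without a filter on level.

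A single model of group means over the 20 arrays was fitted with limma 3.58.1 (R 4.3.3), and 6 contrasts were tested, 2-sided, with Benjamini-Hochberg adjustment over 17097 genes. The script was tested on simulated data. Exact permutation tests compared 2 groups, 2-sided, and were adjusted over no family. Fold changes are differences of log2 means. The other settings were the mean of all probe sets per gene, median centring, quantile normalization, a filter at the median level, a trended and robust variance, array weights, fits of 2 groups, a replicate block and leaving out each array. After the data were seen, 2 covariates, the fit of every probe set and fits without the 2 arrays of lowest T cell score or of highest neutrophil score were added.

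Named genes were all members, up to 4 called genes of smallest p per pathway list and comparison, Il2ra, Il2rg and Il15ra, and the 2 nearest in pattern to each called member. The members and lists were chosen with earlier results of these data known, so their counts are descriptions. Promoter windows and gene symbols are from RefSeq and the platform annotation, and 8 of the 10 genes had a window.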

Additional observations from a re-analysis of the deposited data

Results flagged for a closer look

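The 9 genes gave 36 sets of values, 1 per gene and group, and 2 of them held an array far from the others by Dixon's criterion at the 95% level. Chance flags about 1 in 20 groups. Cish in a-CD4 group replicate 2 had a log2 intensity of 6.35, with the nearest array of the group at 7.65. Socs2 had a log2 intensity of 7.81 on the same array, with the nearest at 8.93. Both values lie on the array with the lowest mean of T cell markers, 8.54.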

How the results depend on the processing

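The 54 log2 fold changes of the 9 genes were recomputed under 12 other settings and without each array in turn, which gave 1188 values. Of these, 1058 stayed on the same side of the threshold and, for a fold change not called, also moved by less than its SE. Direction was not part of this count for fold changes that were not called. No called fold change turned sign, and 53 values of fold changes that were not called did. In SD-101 against saline 0 genes of the set were called under every setting. The number of the 9 called in the anti-PD-1 group against saline, 0, became 1 with quantile normalization, with a trended and robust variance, with only the 2 groups fitted and without the 2 arrays of lowest T cell score, 2 with the T cell score as a covariate and 3 with array weights, and ran from 0 to 2 without single arrays. The 2 called in the a-CD4 group against saline became 4 among genes above the median level, 5 with array weights or the T cell score, 1 without the 2 arrays of lowest T cell score or of highest neutrophil score and 0 with only the 2 groups or the heat shock score, and 0 to 3 without single arrays. A rise from 2 to 3 was counted as no change, so other settings that called 3 are not named. In the anti-PD-1 group against SD-101, 0 became 1 with the mean of all probe sets, without the 2 arrays of lowest T cell score or with the T cell score, 2 with only the 2 groups and 4 with array weights, and stayed at 0 without single arrays. The 1 called in the a-CD4 group against the anti-PD-1 group became 0 with only the 2 groups or without the 2 arrays of highest neutrophil score, and 0 to 1 without single arrays. Against SD-101 the 1 became 0 with the mean of all probe sets, quantile normalization, only the 2 groups, the heat shock score or without the 2 arrays of highest neutrophil score, 2 with the T cell score and 3 with array weights, and 0 to 1 without single arrays. Fits of only 2 groups use fewer arrays, and for the other settings the cause was not tested.

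Samples with the same replicate number deviated together in 9 of 27 pairs (correlation over 0.1), and 4 of 20 samples correlated best with their own number, so the numbers were not taken to pair samples. With the replicate block, 2 genes were called in the anti-PD-1 group against saline (Pim1 and Mcl1). The number called did not change in the other comparisons, with a rise from 2 to 3 counted as no change. The count over all genes moved by more than 1.5 times in each comparison: 57 ran from 10 to 119 in SD-101 against saline, 962 from 0 to 1953 and 1218 from 476 to 2605 in the anti-PD-1 and a-CD4 groups against saline, 816 from 3 to 2760 in the anti-PD-1 group against SD-101, and 364 from 62 to 1246 and 168 from 38 to 633 in the a-CD4 group against the anti-PD-1 group and SD-101. Without single arrays they ran over 25 to 64, 553 to 1531, 665 to 1234, 317 to 1081, 73 to 488 and 35 to 220. Scaling moved the median of all genes by at most 0.04 on the log2 scale. Groups of 4 to 6 arrays limit what differences can be resolved.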
